A study of Mus musculus with 4 samples.

Results

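The genes described here are itch receptors, neuropeptides and nerve factors of mouse skin, taken from a list of 9 members: Il31, Il31ra, Osmr, Osm, Nmu, Artn, Sema3a, Trpv3 and F2rl1. The array annotation assigned 12 probe sets to 7 of them, among 18193 genes and 45101 probe sets in all. Trpv3, a warmth-gated channel of keratinocytes, and F2rl1, the protease-activated receptor PAR-2, are not analysed here. Each gene was read from its brightest probe set, by mean log2 signal, and its other probe sets served as a check. The members were chosen by name with their signals in MC903 and Control skin already known, so the same signals are given here as a description and were not tested.

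Skin had been treated with MC903 (calcipotriol, a vitamin D analogue) on 2 arrays, called MC903, and with the vehicle ethanol on the other 2, called Control. All mice were wild-type female BALB/c, and their ages are not given in the sources used here. In both groups ovalbumin had first been applied to ear skin together with MC903, so the Control skins came from animals that had met MC903 before. A first oral dose of ovalbumin followed, then MC903 or ethanol on the skin, then a second oral dose, after which RNA was taken from the treated skin. The labels do not say whether each array holds a different animal. The p-values therefore reflect array-to-array spread, possibly of technical origin, and 2 arrays per group limit the precision of every value. In whole skin, fewer cells of a type and less RNA per cell cannot be told apart.

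Itch and pain are carried from the skin by sensory nerve endings that respond to cytokines, peptides, proteases and growth factors released around them. IL-31, made mainly by type 2 T cells, signals through a receptor of Il31ra and Osmr, and oncostatin M signals through Osmr and gp130 (Il6st). Neuromedin U is a neuropeptide that activates type 2 innate lymphoid cells, artemin (Artn) is a growth factor for sensory axons through Gfra3 and Ret, and semaphorin 3A (Sema3a) repels sensory axons through neuropilin 1 and A-type plexins.

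Nmu and Il31ra stood furthest from the Control arrays in a form repeated on both MC903 arrays, and the sequence before each of these genes is shown for that reason. It is given 5′ to 3′ on the gene's own strand, from RefSeq (GRCm38.p6). The Nmu stretch is chr5:76363778-76364027, minus strand, 250 bases, and the Il31ra stretch is chr13:112580733-112580912, minus strand, 180 bases. The last 70 bases before the Il31ra start lie within the annotated gene and are not printed. Capitals mark the motifs found.
Nmu: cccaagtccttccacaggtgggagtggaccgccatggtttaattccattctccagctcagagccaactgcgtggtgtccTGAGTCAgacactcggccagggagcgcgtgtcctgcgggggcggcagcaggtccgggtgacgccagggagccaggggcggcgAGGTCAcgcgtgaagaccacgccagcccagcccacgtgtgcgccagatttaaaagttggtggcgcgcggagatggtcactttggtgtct
Il31ra: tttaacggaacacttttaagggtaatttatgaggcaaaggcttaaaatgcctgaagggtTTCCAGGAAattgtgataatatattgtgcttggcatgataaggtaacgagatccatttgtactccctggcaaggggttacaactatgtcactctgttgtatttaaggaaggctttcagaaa

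Motifs were searched on both strands in the 250 bases before the start, for 7 listed members and for all 32851 promoters with sequence. The 7 were Il31, Il31ra, Osmr, Nmu, Artn, Sema3a and Trpv3, so the measured member Osm was not searched. For Osmr, Artn and Sema3a all 250 bases lay within the annotated gene, so no sequence upstream of the whole gene was searched. The AP-1 motif TGANTCA lay 171 to 165 bases before the Nmu start and was found in 6.75% of all promoters. The STAT motif TTCNNNGAA lay 191 to 183 bases before the Il31ra start and was found in 7.02% of all promoters. AGGTCA, one arm of the vitamin D receptor's element, lay 89 to 84 bases before the Nmu start and was found in 14.0% of all promoters. An exact pair of AGGTCA copies spaced by 3 bases was in 0 of the 7 windows and in 2 of all promoters. With so few matches anywhere, its absence from the 7 windows shows nothing, and inexact copies were not searched. Among the other members' windows these letters were found once, an AP-1 motif before Trpv3. The motifs were chosen after the expression values had been seen, and a match is not a binding site.

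Values below are linear array signals, scaled by the depositors to a trimmed mean of 500 on every array, and differences are MC903 minus Control on the log2(signal + 16) scale. The constant of 16 makes differences of dim genes smaller than they are on a plain log scale. Signals come without detection calls, so the 3 TrpnX probe sets, which match bacterial transcripts, serve as background and had signals of 1.55 to 24.0. Median signals over all probe sets were 90.2 and 99.6 on the MC903 arrays and 109 and 99.7 on the Control arrays. Keratinocyte markers were bright in every sample, with summed signals of 220128 and 224868 in MC903 and 197881 and 194921 in Control over 9 measured genes. The arrays differed in skeletal muscle RNA, whose 9 markers summed to 11869 and 45184 in MC903 and to 57583 and 34616 in Control. All 14 hair shaft and root sheath markers were lower on both MC903 arrays than on both Control arrays, with sums of 11485 and 9720 in MC903 and 49410 and 82451 in Control. Across all genes limma, with a constant prior variance and Benjamini-Hochberg adjustment, called 0 of 18193 (0% higher and 0% lower; smallest adjusted p = 0.0561), against 2767 at an unadjusted p under 0.05. When limma's prior variance was allowed to follow the signal, the calls were 98 higher (0.539%) and 70 lower (0.385%).

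Of the 7 measured members, 4 were higher on both MC903 arrays than on both Control arrays (Nmu, Il31ra, Osmr and Osm), 1 was lower (Sema3a), and the groups overlapped for Il31 and Artn. Among all genes 21.6% were higher in this way and 28.2% lower, and among the 15019 genes above the TrpnX background on both arrays of a group, 22.5% and 31.5%. The same shares of all genes stand beside the counts for the marker lists below. For 2 of the 7, Nmu and Il31ra, every MC903 signal was 2-fold or more above every Control signal after 16 was added to each. Of all genes, 1.16% met this criterion and 0.813% met it in the lower direction. With the added constant, dim genes meet it less easily than they would on the signals alone. Because the contrast itself was known when the members were chosen, nothing is read from these counts. The median difference of the members was 0.68, and that of all genes was -0.04.

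**Figure D1:**
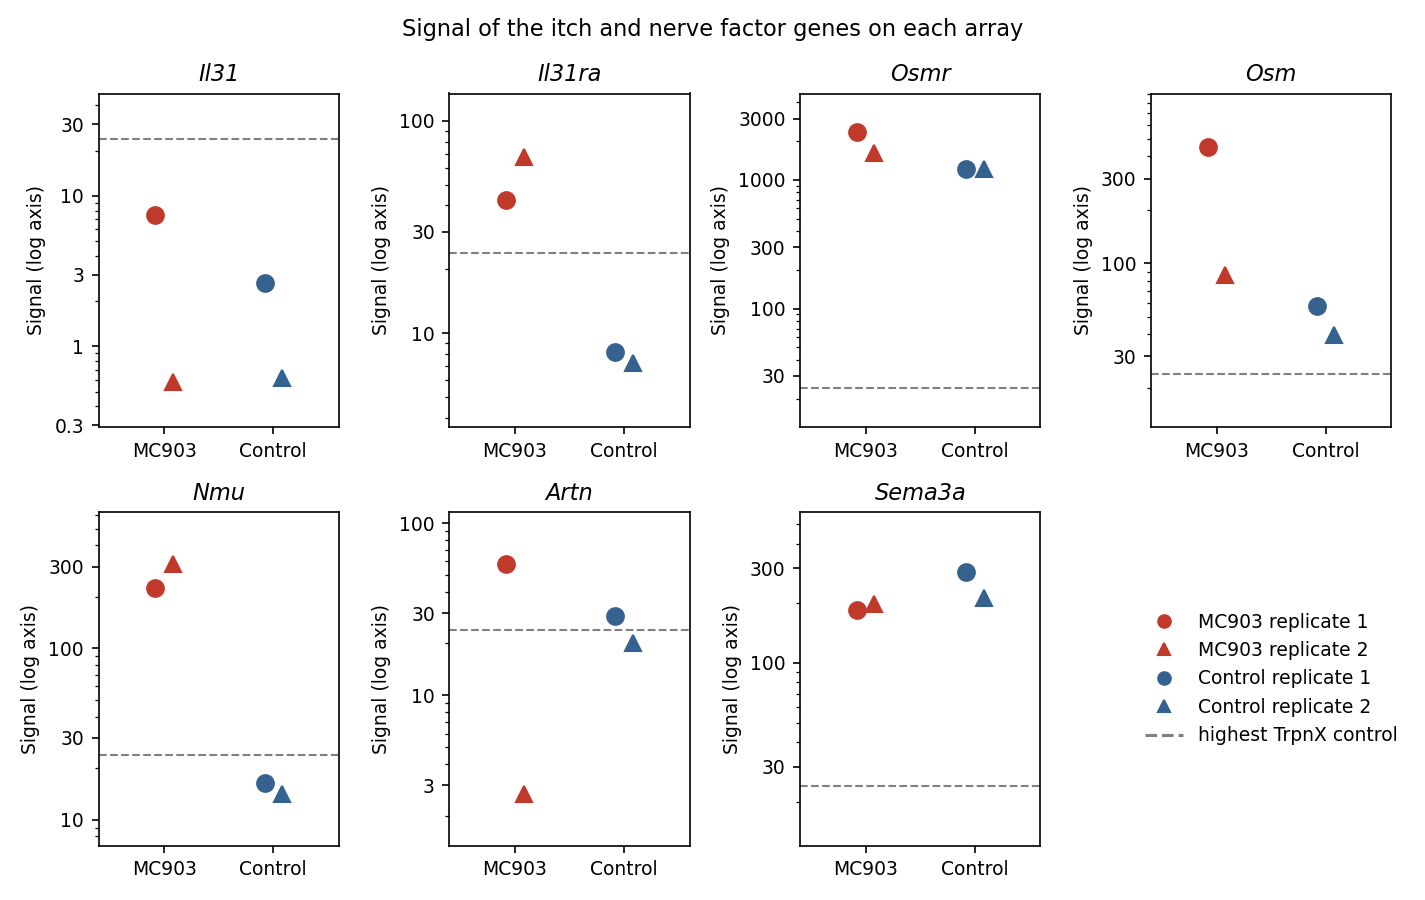
Signal of each measured gene on the 2 MC903 and 2 Control arrays, 1 panel per gene on its own log axis, with the highest TrpnX signal (24.0) as a dashed line. Nmu and Il31ra lie above the line on the MC903 arrays and below it on the Control arrays, while every Il31 signal lies below it.

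Among the ligands, Nmu had the largest difference. Its signals were 225 and 313 in MC903, against 16.5 and 14.1 in Control. Both MC903 arrays lay far above both Control arrays, which were within the range of the TrpnX controls. The difference was 3.17 ± 0.22 (SE, n = 2 per group) on the log2(signal + 16) scale. Since Control gave only a background signal, the fold on the signal scale is a lower bound: with Control signals raised to the highest TrpnX signal, Nmu was at least 11.1-fold higher in MC903. That bound was 13.0 without MC903 replicate 1 and 9.39 without MC903 replicate 2. The 2 MC903 arrays differed by less than the groups did, with replicate 1 at 0.72 times replicate 2. Only 1 probe set was assigned to Nmu, so no other probe set checks it. Markers of wounded or hyperproliferating keratinocytes were also higher, all 10 on both MC903 arrays, with sums of 263996 and 133021 in MC903 and 23615 and 25901 in Control. None of the 10 was at background on all arrays, and their part in the Nmu, Il31ra and Osmr signals was not tested.

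The neuromedin receptors were dim. Nmur1, the receptor found on immune cells, had signals of 39.2 and 67.1 in MC903, against 22.2 and 3.02 in Control, the Control signals being within the TrpnX range. It was at least 2.14-fold higher in MC903 by the same bound (limma, adjusted p = 0.293). Its bound was 2.80 without MC903 replicate 1 and 1.64 without MC903 replicate 2. Nmur2, the receptor found mainly in the nervous system, had 4.47 and 52.3 in MC903 and 43.9 and 30.7 in Control, and the groups overlapped. Nms, the related peptide neuromedin S, is not analysed here.

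Il31, the itch cytokine, had no signal above background. Its signals were 7.53 and 0.58 in MC903 and 2.62 and 0.61 in Control, and the highest of them lay under the highest TrpnX signal of 24.0. Its difference of 0.17 ± 0.23 (SE, n = 2 per group) is therefore between background signals, and no fold is given. T cell markers, which mark the main source of IL-31, summed to 2239 and 2019 in MC903 and to 1112 and 1278 in Control over 8 of 10 listed genes. Of these 8, 6 were higher on both MC903 arrays, 0 were lower and 2 overlapped. The 6 include Cd4, named after its values had been seen, with 18.0 and 67.9 in MC903 and 10.3 and 12.8 in Control. Only its signal on MC903 replicate 2 lay above the highest TrpnX signal. The part of T cells in the Il31 signals was not tested.

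Il31ra, the chain that binds IL-31, was above background on the MC903 arrays alone. Its signals were 42.4 and 67.3 in MC903, against 8.17 and 7.22 in Control, where both lay within the TrpnX range. The groups did not overlap, and the difference was 1.56 ± 0.23 (SE, n = 2 per group). On the signal scale Il31ra was at least 2.23-fold higher in MC903 against the highest TrpnX signal. That bound was 2.81 without MC903 replicate 1 and 1.77 without MC903 replicate 2. The second Il31ra probe set had 5.01 and 11.4 in MC903 and 10.9 and 11.1 in Control. That probe set stayed within the TrpnX range on all 4 arrays and so gives no measurement of either group. The difference for Il31ra thus rests on 1 probe set and on signals not far above background.

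Osmr, the chain shared by the IL-31 and oncostatin M receptors, was bright in all samples. Its signals were 2347 and 1625 in MC903, against 1209 and 1218 in Control. The Control arrays were almost equal and both MC903 arrays were higher, replicate 1 more so. The difference was 0.68 ± 0.23 (SE, n = 2 per group), and single pairings ranged from 1.33-fold to 1.94-fold. The second probe set had 334 and 246 in MC903, against 185 and 201 in Control, a difference of 0.54 ± 0.22. It kept the order of the groups, again with replicate 1 the higher of the MC903 arrays. The third had 32.8 and 67.4 in MC903 and 55.4 and 55.7 in Control, so its groups overlapped (-0.17 ± 0.31).

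Osm, the cytokine oncostatin M of myeloid and T cells, was high on 1 MC903 array. Its signals were 452 and 85.8 in MC903, against 58.0 and 39.7 in Control. The groups did not overlap, but MC903 replicate 1 was 5.27 times replicate 2, and replicate 2 was only 1.48 times the higher Control array. The difference of 1.77 ± 0.78 (SE, n = 2 per group) became 0.66 without MC903 replicate 1 and 2.87 without MC903 replicate 2. The summed macrophage markers followed the same order of arrays, with 53704 and 32701 in MC903 and 24116 and 22987 in Control over 10 genes. Taken singly, Csf1r, Fcgr1, Msr1, Mertk and Lyz2 did not follow that order. Of the 10, 9 were higher on both MC903 arrays and 1 was lower. Neutrophil markers summed to 1576 and 958 in MC903 and to 596 and 632 in Control over 8 of 10 listed genes, with 3 higher on both MC903 arrays and 5 overlapping. Each marker list had 0 genes at or below the highest TrpnX signal on all arrays, and the part of these cells in the Osm signal was not tested.

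**Figure D2:**
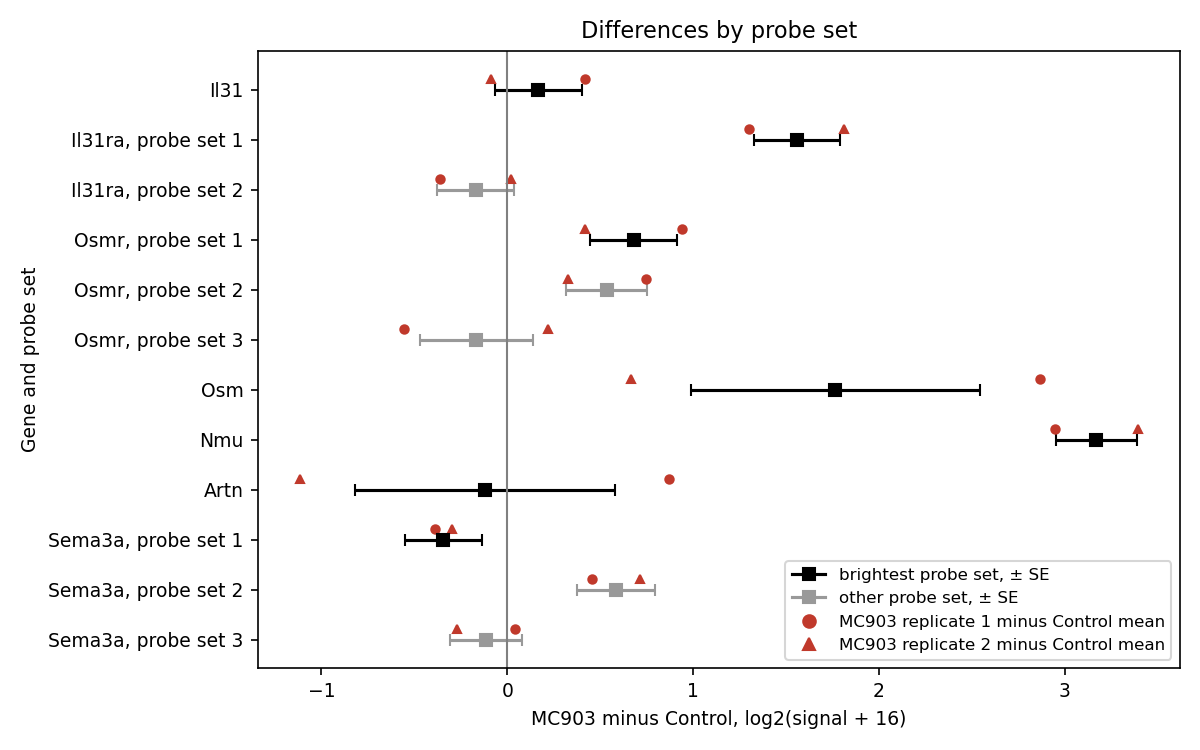
Difference between MC903 and Control on the log2(signal + 16) scale for all 12 probe sets, with the standard error as bars (n = 2 arrays per group) and each MC903 array against the Control mean as small symbols. The 2 Osm symbols lie at 2.87 and 0.66, and the 3 Sema3a probe sets lie on both sides of 0.

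Of the factors that act on axons, Artn could not be placed. Its signals were 58.0 and 2.68 in MC903 and 29.1 and 20.3 in Control. One MC903 array was the highest and the other the lowest of the 4, with replicate 1 at 21.6 times replicate 2, and the difference was -0.12 ± 0.70 (SE, n = 2 per group). It was 0.87 without MC903 replicate 2 and -1.11 without MC903 replicate 1. Only 2 of the 4 signals lay above the highest TrpnX signal.

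Sema3a gave different answers by probe set. On the brightest, the signals were 186 and 199 in MC903, against 289 and 213 in Control, so MC903 was lower on both arrays, by -0.34 ± 0.21 (SE, n = 2 per group). MC903 replicate 2 was within 0.93 times the lower Control array. A dimmer probe set had 38.6 and 49.4 in MC903, against 19.8 and 28.3 in Control, and was higher on both arrays (0.59 ± 0.21). The last had 163 and 128 in MC903 and 162 and 154 in Control, with overlapping groups (-0.12 ± 0.19). No direction is therefore given for Sema3a.

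The genes that act with the members were followed through 11 lists of 142 genes, of which 126 were measured. Over all genes, limma with a constant prior called 0 of the 126, and with a prior that follows the signal it called 6 higher (0.539% of all genes were) and 0 lower (0.385% of all genes). Both MC903 arrays lay above both Control arrays for 44 of them (34.9%, against 21.6% of all genes) and below for 27 (21.4%, against 28.2%). Their median difference was 0.11, against -0.04 over all genes. The lists were written with earlier results of these data known, so these counts and shares are description and not a test. The 6 calls of the signal-dependent prior were Klk6, Klk7, Klk8, Klk13, Calcb and Ptgs2. Without Control replicate 1, and likewise without Control replicate 2, 0 of these 6 were called, and without either MC903 array all 6 were.

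**Figure D3:**
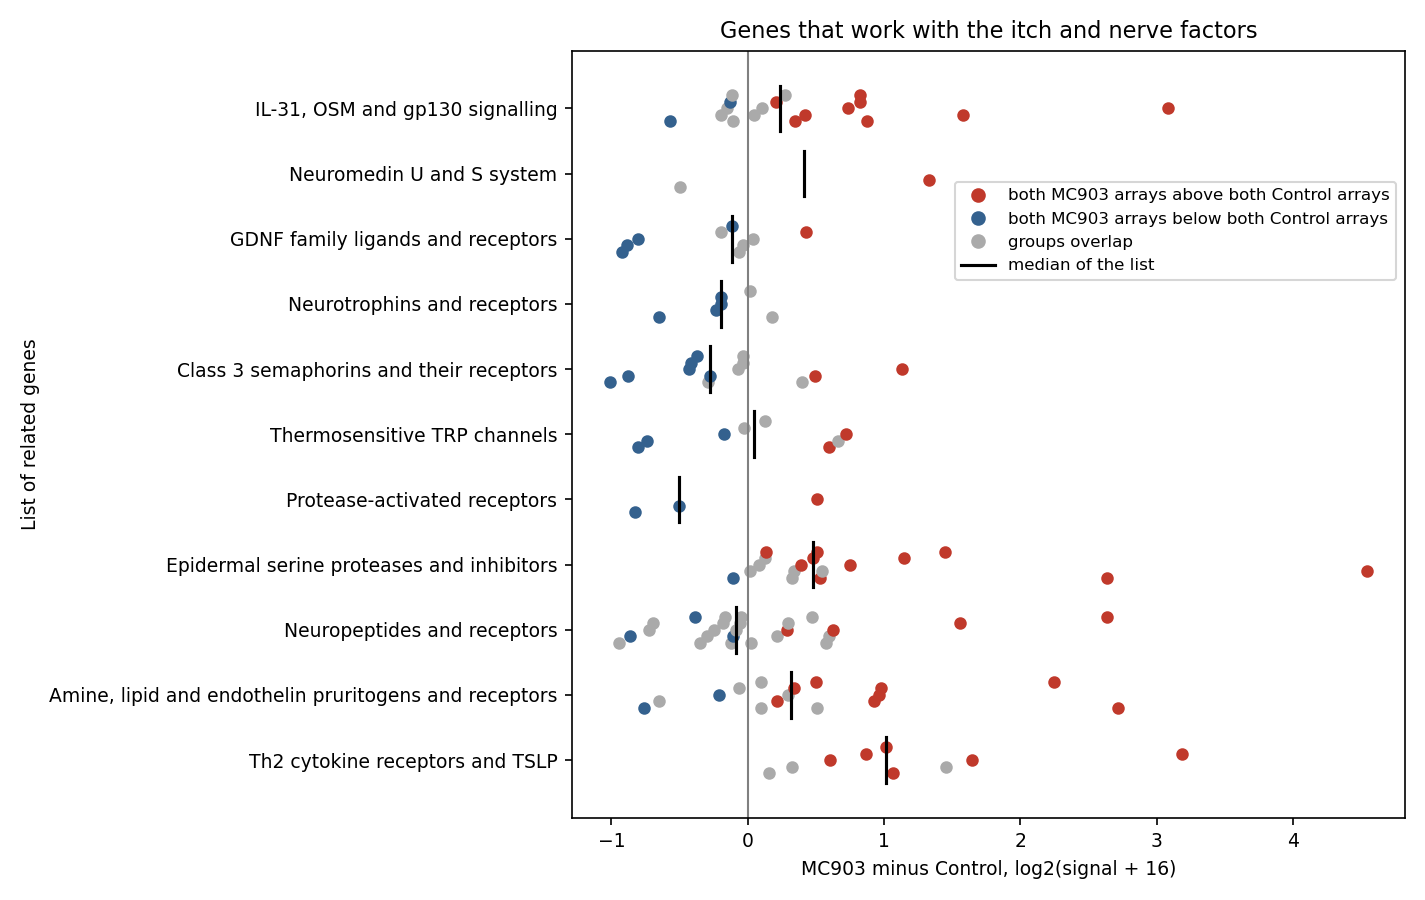
Difference between MC903 and Control on the log2(signal + 16) scale for each measured gene of the 11 lists, 1 point per gene and a bar at each list's median. Red points are genes higher on both MC903 arrays than on both Control arrays, blue points lower on both, and grey points overlap. The lists' medians run from -0.50 for protease-activated receptors to 1.01 for Th2 cytokine receptors and TSLP.

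In the signalling chain of IL-31 and oncostatin M, 9 of 18 measured genes were higher on both MC903 arrays (21.6% of all genes were). Another 2 were lower (28.2% of all genes) and 7 overlapped. The list's median difference was 0.24, with 0 limma calls with either prior. Il6st, the gp130 chain that pairs with Osmr for oncostatin M, had 3312 and 2510 in MC903, against 2423 and 2107 in Control. MC903 replicate 2 was barely above the higher Control array, and the difference was 0.35 ± 0.21. Lifr, another partner of gp130, overlapped between groups (-0.12 ± 0.22). Socs3, a feedback inhibitor that STAT3 induces, had 2374 and 1342 in MC903, against 479 and 719 in Control, a difference of 1.58 ± 0.37 (limma, adjusted p = 0.229). Its brightest probe set is of a class that may also match other transcripts. Il6, a related cytokine, had 818 and 128 in MC903, against 37.3 and 15.4 in Control (3.08 ± 0.91), with the lower Control signal in the TrpnX range. As with Osm, its MC903 signals were far apart and replicate 1 was the higher.

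Both chains of the artemin receptor were lower on both MC903 arrays, on dim signals. Gfra3, its binding chain, had 41.4 and 89.5 in MC903, against 130 and 125 in Control, a difference of -0.89 ± 0.33. Ret, the signalling chain, had 58.1 and 52.8 in MC903, against 92.1 and 128 in Control (-0.80 ± 0.21), but its 1 other probe set differed the other way. Ncam1, an adhesion molecule that can also bind GDNF family ligands, had 36.5 and 74.4 in MC903, against 153 and 84.8 in Control, and 2 of its 6 other probe sets differed the other way. In this list 4 of 9 genes were lower on both MC903 arrays (28.2% of all genes were) and 1 was higher (21.6%). Its median was -0.11, with 0 limma calls with either prior. Markers of Schwann cells, the glia of skin nerves, summed to 2589 and 3210 in MC903 and to 6160 and 3339 in Control over 7 of 10 listed genes. Of these 7, 3 were lower on both MC903 arrays (Mbp, Sox10 and Gfra3, which is on both lists) and 4 overlapped, and their part in the receptor signals was not tested. For Mbp, 2 of its 7 other probe sets differed the other way.

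Markers of neurons, whose cell bodies lie outside the skin, summed over 10 genes to 448 and 323 in MC903 and to 259 and 283 in Control, and Nefm, Scn10a and Snap25 stayed at or below the highest TrpnX signal on all arrays. Of the 10, 3 were higher on both MC903 arrays, 0 lower and 7 overlapping. Much of the sum came from Tubb3, with 229 and 123 in MC903 and 77.9 and 94.1 in Control, and Prph, with 91.0 and 63.8 in MC903 and 48.4 and 46.2 in Control. The Prph probe set is of a class that may also match other transcripts, and 1 of its 3 other probe sets differed the other way. Elavl4, also higher, had 24.7 and 18.8 in MC903 and 14.0 and 11.5 in Control, at or next to background. Among the neurotrophins and their receptors, 4 of 6 measured genes were lower on both MC903 arrays (28.2% of all genes were). Of the rest, 0 were higher (21.6% of all genes) and 2 overlapped, with a median of -0.20 over the list and 0 limma calls. Ntf5 (neurotrophin 4/5) had 145 and 165 in MC903, against 205 and 312 in Control (-0.65 ± 0.25). Ntrk2, its receptor TrkB, differed by -0.23 ± 0.18, with 3 of its 7 other probe sets differing the other way.

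Of 13 class 3 semaphorins and their receptors, 6 were lower on both MC903 arrays (28.2% of all genes were). Another 2 were higher (21.6% of all genes) and 5 overlapped, with a median of -0.27 over the list and 0 limma calls. Sema3d, a guidance factor related to Sema3a, had 1656 and 2967 in MC903, against 4490 and 4490 in Control. The Control arrays were nearly equal and both MC903 arrays lay below them, by -1.01 ± 0.32 (limma, adjusted p = 0.291). Of the Sema3a receptors, Nrp1 overlapped between groups (-0.03 ± 0.24). Plxna1, Plxna2 and Plxna3 were each lower on both MC903 arrays, by -0.37 ± 0.20, -0.27 ± 0.19 and -0.42 ± 0.22, though the 1 other Plxna1 probe set differed the other way. Plxna4 was higher, with 98.2 and 78.6 in MC903, against 57.0 and 14.8 in Control, where 1 array lay in the TrpnX range.

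Of the TRP channels that sense heat and irritants in nerve endings, Trpa1 and Trpv1 were at or near background. Trpa1, the irritant receptor, had 4.39 and 3.24 in MC903 and 19.0 and 15.1 in Control, all within the TrpnX range. Trpv1, the capsaicin receptor, had 23.9 and 39.6 in MC903 and 31.7 and 23.1 in Control, and the groups overlapped. Trpv4, which keratinocytes also express, had 150 and 137 in MC903 and 173 and 123 in Control, again overlapping. Trpm2, a channel opened by oxidative stress, had 98.4 and 114 in MC903, against 54.1 and 61.5 in Control (0.72 ± 0.17). Trpm3 had 16.6 and 23.4 in MC903, within the TrpnX range, against 64.5 and 33.0 in Control. It was at least 1.93-fold lower in MC903, a bound that was 1.38 without Control replicate 1 and 2.69 without Control replicate 2. Of its 5 other probe sets, 1 differed the other way. In all, 2 of 8 channels were higher on both MC903 arrays, 3 lower and 3 overlapping, with 0 limma calls, beside 21.6% and 28.2% of all genes. One of the higher, the cold receptor Trpm8 (named after its values had been seen), and one of the lower, Trpa1, had background signals on all arrays.

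Several proteases of the epidermis can act on protease-activated receptors. With the prior that follows the signal limma called 4 of the 17 measured proteases and inhibitors higher (Klk6, Klk7, Klk8 and Klk13), against 0.539% of all genes, and called 0 of these 4 without either Control array. In MC903 skin 10 of the 17 were higher on both arrays (21.6% of all genes were). Another 1 was lower (28.2% of all genes) and 6 overlapped, with a median of 0.48 over the list. Klk13, a kallikrein of the upper epidermis, had 9790 and 3189 in MC903, against 196 and 258 in Control, a difference of 4.54 ± 0.58. Its limma adjusted p was 0.156 with the constant prior and 0.0308 with the prior that follows the signal, where it was 0.29 without either Control array and at most 0.0047 without either MC903 array. Klk6 had 18813 and 9676 in MC903, against 2321 and 2012 in Control (2.63 ± 0.37), and Klk5, an activator of PAR-2, had 5524 and 7711 in MC903, against 4919 and 4472 in Control (0.48 ± 0.23). Klk13 and Klk6 were higher on replicate 1 of the MC903 arrays and Klk5 on replicate 2. The groups overlapped for Klk10, a kallikrein named after its values had been seen, with 3206 and 1904 in MC903 and 2428 and 1591 in Control. The list of protease-activated receptors had 3 measured genes, 1 higher on both MC903 arrays and 2 lower (21.6% and 28.2% of all genes). It had 0 limma calls. F2r (PAR-1) was lower, with 2395 and 1669 in MC903, against 3048 and 2642 in Control (-0.50 ± 0.24), and F2rl2 (PAR-3) was higher, with 134 and 174 in MC903, against 95.9 and 110 in Control (0.51 ± 0.20). The F2r probe set is of a class that may also match other transcripts. F2rl3 (PAR-4), named after its values had been seen, had 6.52 and 3.68 in MC903, against 24.0 and 18.9 in Control, at or next to background on all arrays.

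Among other neuropeptides, 4 of 25 measured genes were higher on both MC903 arrays (21.6% of all genes were). Another 3 were lower (28.2% of all genes) and 18 overlapped, with a median of -0.09 over the list. Grp, gastrin-releasing peptide, an itch transmitter of the spinal cord, had 219 and 62.9 in MC903, against 9.48 and 2.81 in Control, both within the TrpnX range. It was at least 4.89-fold higher in MC903 (limma, adjusted p = 0.212), a bound that was 2.63 without MC903 replicate 1 and 9.12 without MC903 replicate 2, computed after the data had been seen. Calcb, which encodes the beta form of calcitonin gene-related peptide, had 1225 and 1707 in MC903, against 513 and 452 in Control, a difference of 1.56 ± 0.23. Its limma adjusted p was 0.159 with the constant prior and 0.0395 with the prior that follows the signal. Tac1, the substance P gene, had 11.2 and 14.0 in MC903 and 27.3 and 12.4 in Control, close to background, as was its receptor gene Tacr1. Tac1 and Tacr1 were named after their values had been seen. Tacr1 is among the 3 counted as lower, though its signals were at background on all arrays.

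Of amine, lipid and endothelin itch signals and receptors, 8 of 16 measured genes were higher on both MC903 arrays (21.6% of all genes were). Another 2 were lower (28.2% of all genes) and 6 overlapped, with a median of 0.32 over the list. Ptgs2, the inducible prostaglandin synthase, had 612 and 358 in MC903, against 57.8 and 57.8 in Control, a difference of 2.72 ± 0.30 (limma, adjusted p = 0.139, and 0.0321 with the prior that follows the signal). Hdc, which makes histamine, had 1804 and 340 in MC903, against 160 and 149 in Control (2.24 ± 0.82), the MC903 signal being higher on replicate 1, on a probe set of a class that may match related transcripts. The mast cell and basophil markers, which include Hdc, were higher on both MC903 arrays for 4 of 10 genes, lower for 1 and overlapping for 5, with sums of 16333 and 9602 in MC903 and 9433 and 8401 in Control. Mcpt8, a basophil protease, had 2972 and 257 in MC903, against 4.67 and 4.21 in Control, where both signals were at background. The mast cell protease Cpa3 overlapped between groups (-0.02 ± 0.16) and the receptor Kit was lower on both MC903 arrays (-0.34 ± 0.17). The part of these cells in the Hdc signal was not tested. Among Th2 cytokines and receptors, 6 of 9 were higher on both MC903 arrays (21.6% of all genes were) and 3 overlapped. Of the 6, Il13 was at or next to background, with 32.9 and 16.5 in MC903 and 9.14 and 3.11 in Control. Il4 was among the 3 that overlapped, with 364 and 41.1 in MC903 and 33.5 and 42.2 in Control. Il13 and Il4 were named after their values had been seen. The list had a median of 1.01 and 0 limma calls. Il4ra, the shared receptor chain of IL-4 and IL-13, had 1008 and 379 in MC903, against 189 and 187 in Control (1.64 ± 0.49). Tslp, the epithelial cytokine, had 777 and 6313 in MC903, against 253 and 209 in Control, and in contrast to Osm its higher MC903 array was replicate 2.

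**Figure D4:**
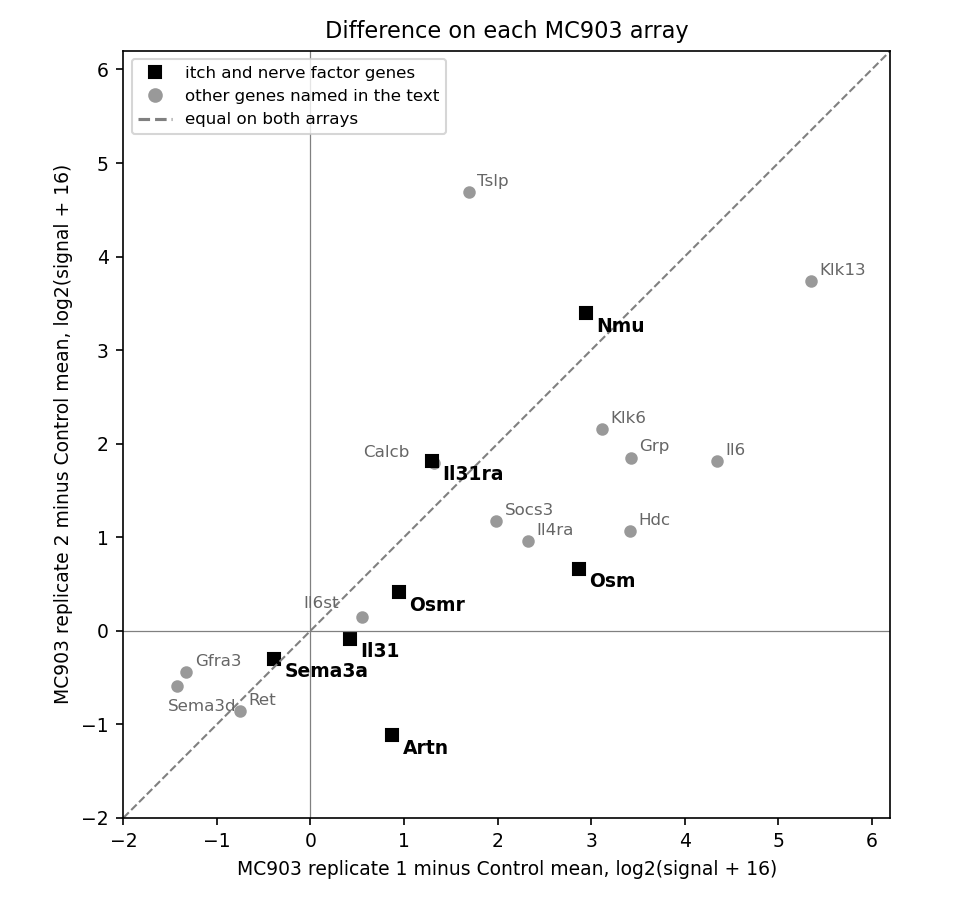
Difference of each MC903 array from the Control mean on the log2(signal + 16) scale, replicate 1 across and replicate 2 up, with a dashed line of equality. Nmu (2.95 and 3.39) and Il31ra (1.30 and 1.81) lie near the line, Osm (2.87 and 0.66) lies below it, and Artn has opposite signs on the 2 arrays.

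The genes whose pattern over the 4 arrays was closest to each member were found by the root mean square distance between log2(signal + 16) profiles centred on their own means, among 14980 genes above background in their higher group. For Osmr they were Sirpa and Hif1a (0.02 each), and with a constant of 1 or 64 in place of 16, tried after the data had been seen, Sirpa ranked 1 and 4 and Hif1a 2 and 5. For Osm they were the acute phase gene Saa2 (0.05), which ranked 1 with either constant, and the macrophage receptor Cd163 (0.13), which ranked 9 and 13. For Sema3a on its brightest probe set they were Tmod2 and Nsun7 (0.02 each), and Nsun7 ranked 56 and 159 with the other constants. Nmu and Il31ra have only background signals in Control, so the constant sets the shape of their profiles and the nearest genes are not firmly placed. For Nmu these were Akr1d1 (0.13), which ranked 3 with either other constant, and the kallikrein Klk9 (0.25), which ranked 14 and 130. For Il31ra they were Calcb (0.04), which ranked 83 and 5469 with constants of 1 and 64, and the chemokine receptor Ccr8 (0.07), which ranked 32 and 45. The distances describe these 4 arrays.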

How the data were processed

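Per the labels' protocols, 200 ng of total skin RNA went into each biotin-labelled array target. The deposited values are linear array intensity (signal) per probe set, whose mean without the highest and lowest 2% was 500 on each array; the summarising software is not named there. Probe sets were named from the platform annotation, with symbols updated by Entrez ID to RefSeq GRCm38.p6: 34945 of 45101 had 1 symbol, 932 several, 9160 were not listed and 64 were controls. Each gene took the probe set with the highest mean of log2(signal + 16), giving 18193 genes, compared with limma 3.58.1 in R 4.3.3 (constant prior variance, Benjamini-Hochberg, threshold 0.05). The fit had 2 residual degrees of freedom, and for 2 against 2 arrays the smallest exact permutation p is 0.333. Standard errors are limma's; those of secondary probe sets come from a fit across all probe sets. The fit was tested on simulated data. No 2 arrays held identical values.

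The members and lists were chosen with earlier results of these data known. From each list the text names the 2 genes with the largest differences among those with non-overlapping groups above the TrpnX background, and partners of the members and channels or ligands of the same nerves (such as Trpv1, Trpv4 and Trpa1), written down with the lists. A gene at or below the highest TrpnX signal on every array of a group is given as "at least", from mean log2 signals with that group raised to it. Such a bound rests on the mean of the other group's arrays. Its values with 1 of those arrays left out were computed after the data had been seen. Alternatives were other scalings, constants of 1 and 64, filters on dim genes, averaged or other probe sets, other priors, a replicate block, and each array omitted in turn.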

Additional observations from a re-analysis of the deposited data

How the results depend on the processing

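The 4 members higher on both MC903 arrays numbered 4 under each scaling and constant tried, 5 with probe sets averaged, and 4 to 6 with an array left out. The 1 member lower, Sema3a, became 0 with probe sets averaged and 3 members without MC903 replicate 1. The members' median difference of 0.68 was 0.35 with probe sets averaged and 0.42 to 0.94 with an array left out. Averaging also gave 0.69 for Il31ra, 0.35 for Osmr and 0.04 for Sema3a. A constant of 1 gave 4.03 for Nmu and 2.65 for Il31ra, and a constant of 64 gave 2.06 and 0.72. Artn was 0.03 with a constant of 64. Across all genes limma's 0 calls became 3 higher and 0 lower with quantile normalization or centring on medians, 41 and 29 with a constant of 64, 9 and 3 with averaged probe sets, 25 and 17 without the dimmest 25% of genes, and 96 and 81 without the dimmest 50%. They were 0 with a constant of 1, a robust prior or an array left out. A prior following the signal gave 98 and 70, and with an array left out (added after seeing the data) 5 to 546 higher and 0 to 400 lower; 7 and 8 without Control replicate 1, 5 and 0 without Control replicate 2, 134 and 93 without MC903 replicate 1, and 546 and 400 without MC903 replicate 2. Of the related genes, 55 to 60 were higher and 38 to 45 lower with an array left out, where fewer arrays must be ordered. The labels do not say whether same-numbered arrays belong together. Their deviations had a correlation of -0.06, which cannot settle it. With a replicate block limma called 0 genes and the members' median stayed 0.68. Causes were otherwise not tested. Dim signals limit Il31, Artn and the Control values of Nmu and Il31ra.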
